A study of Mus musculus with 12 samples.

Results

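Invariant natural killer T (iNKT) cells were identified by their T cell receptor among islet T cells of NOD mice, the inbred strain that develops autoimmune diabetes, taken from females before diabetes. A cell was counted as an iNKT cell when it carried a productive TRA (receptor alpha chain) contig that joined TRAV11 or TRAV11D to TRAJ18 and its gene expression barcode held at least 500 gene UMIs with at most 8% mitochondrial UMIs. A UMI (unique molecular identifier) marks one captured RNA molecule. Of 15598 such barcodes with a productive TRA in 4 biological replicates, 86 met the rule, which is 0.551% (95% Clopper-Pearson interval 0.441 to 0.680%). All 86 used TRAV11 and none used TRAV11D, and no barcode with the invariant chain was lost to the filters. In 21 of the 86 the invariant contig rested on 1 UMI.

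The mice were 12 weeks old, and the labels name no treatment, so there is a single group and the comparisons below run between cells of the same library. Islet cells sorted as live and positive for the TCR beta chain were stained with barcoded antibodies to CD4, CD62L and CD11a and with biotinylated anti-CD8b read through a barcoded PE-streptavidin, and were then profiled by 5′ single-cell RNA, antibody and receptor sequencing. That gate leaves out cells without an alpha-beta receptor, such as NK cells. Whether 1 mouse or several made up a replicate is not given. Replicates 1 to 4 contained 21, 20, 20 and 25 iNKT cells among 4264, 2938, 4115 and 4281 barcodes with a productive TRA, shares of 0.492, 0.681, 0.486 and 0.584% (mean 0.561 ± 0.0916%, SD, n = 4). The 95% intervals of the 4 libraries overlapped, from 0.297% at the lowest bound to 1.05% at the highest, and cover counting error only. Of 26834 distinct barcode sequences kept, 372 occurred in 2 libraries, among them 4 of the iNKT barcodes, none of which was an iNKT cell in both.

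iNKT cells recognise glycolipids presented by the MHC class I-like molecule CD1d through a semi-invariant receptor, in mice an alpha chain of TRAV11 with TRAJ18 paired with a restricted set of beta chains. They acquire effector programmes during thymic development under the transcription factor PLZF, encoded by Zbtb16. Textbook subsets are NKT1 (T-bet, encoded by Tbx21, with interferon gamma), NKT2 (GATA3 and IL-4) and NKT17 (IL-17). Most iNKT cells stay in tissues, and some carry CD4 while others carry neither CD4 nor CD8.

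The 86 cells carried 9 distinct alpha-chain CDR3 sequences, the part of the receptor that spans the V-J junction, and these are shown because they reveal how uniform the receptor was. The 7 commonest or most divergent are given 5′ to 3′ as deposited. Capitals mark the fourth codon (bases 10 to 12) in the first 6, and the extra bases in the last.

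TRA CDR3, 30 cells: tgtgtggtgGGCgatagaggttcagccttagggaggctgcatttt
TRA CDR3, 25 cells: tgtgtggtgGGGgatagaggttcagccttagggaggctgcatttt
TRA CDR3, 14 cells: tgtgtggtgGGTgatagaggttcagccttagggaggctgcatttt
TRA CDR3, 10 cells: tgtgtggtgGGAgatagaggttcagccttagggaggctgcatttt
TRA CDR3, 2 cells of replicate 1: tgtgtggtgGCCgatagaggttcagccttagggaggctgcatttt
TRA CDR3, 2 cells of replicates 2 and 4: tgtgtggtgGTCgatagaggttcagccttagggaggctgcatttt
TRA CDR3, 1 cell of replicate 4: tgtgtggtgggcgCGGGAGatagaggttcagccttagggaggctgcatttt

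The CDR3 was 15 residues (45 bases) long in 84 of 86 cells. In 80 cells the translated CDR3 was the same protein sequence, written by 5 nucleotide sequences. The first 4 sequences shown differ only in the last base of the fourth codon, all 4 of which encode glycine, and they account for 79 of those 80 cells. The sequence with GGC was found in all 4 libraries in 5, 9, 9 and 7 cells, and that with GGG in 8, 3, 4 and 10 cells. In most cells the alpha CDR3 was thus the same protein, written mainly by 4 DNA sequences that each recurred in 3 or 4 libraries. The longest CDR3 (51 bases) belonged to a cell of replicate 4 with a CD62L antibody count of 23 and a TRBV5 beta chain.

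Zbtb16 UMIs were found with the joined chain and rarely with either of its segments alone. Zbtb16 gave 87 UMIs, found in 43 of the 86 iNKT cells. It gave 0 UMIs in 22 cells that joined TRAV11 to another TRAJ, and 6 UMIs in 2 of 514 cells that joined TRAJ18 to another TRAV. CXCR6 mRNA followed the same order, with a Cxcr6 UMI in 80 of 86 iNKT cells, in 3 of 22 and in 97 of 514. The CD62L-low share was 83.7%, 40.9% and 51.0% in these 3 sets. Only 3 cells carried TRAV1 with TRAJ33, the chain typical of mucosal-associated invariant T cells, too few for any comparison.

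The iNKT cells were next checked against their markers. Zbtb16 marked them in every library, Tbx21 was higher than in other T cells, and Klrb1c (NK1.1) was not seen. Levels are given as CPM (UMIs per 1000000 gene UMIs) of the cells of a library summed together, and compared in cells with a CD62L antibody count of at most 3 (CD62L-low cells). This left 72 iNKT cells (16, 19, 16 and 21) and 7882 other cells with a productive TRA (1483, 1977, 1968 and 2454). The summed iNKT cells held 81093 to 115148 UMIs a library and the others 10839794 to 14630367, so an iNKT gene at 1 UMI already stands near 10 CPM, and differences of weakly expressed genes are less certain.

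Zbtb16 was at 135, 139, 249 and 259 CPM in the iNKT cells of replicates 1 to 4 and at 1.01, 0.615, 0.762 and 0.342 CPM in the others. The lowest iNKT library lay far above the highest of the others, and the log2 fold change was 7.99 ± 0.58 (SE, edgeR quasi-likelihood). Zbtb16 passed the filter on low counts only through the iNKT libraries, so its call is given as a description. After thinning each cell to 2000 UMIs, 25.9 ± 8.83% (SD, n = 4 libraries) of iNKT cells and 0.0818 ± 0.0924% of other cells held a Zbtb16 UMI, against 51.6% and 0.246% unthinned. Median depths were 4736 and 4224 UMIs, and 3 iNKT and 849 other cells were too shallow to thin. Tbx21 was at 135, 174, 156 and 173 CPM in iNKT cells and at 44.7, 55.4, 48.9 and 61.7 CPM in other cells, without overlap (log2 fold change 1.46 ± 0.26, edgeR adjusted p = 1.7e-06). Klrb1c gave 0 UMIs in the 72 cells and 1 UMI among all 86, and was near 0 in the other cells too (0.0940 CPM pooled). A count of 0 allows up to 7.87 CPM here, so the label rests on the receptor, Zbtb16 and Tbx21.

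On the surface, iNKT cells carried more CD11a, the alpha chain of the adhesion integrin LFA-1, and were more often CD62L-low than other T cells. Median CD11a antibody counts were 540, 434, 518 and 521 in iNKT cells of any CD62L level and 113, 141, 144 and 146 in other cells. Every iNKT median exceeded every other median, with a mean difference of 367 ± 55.6 counts (SD, n = 4). Within CD62L-low cells the difference was 264 ± 46.8, from medians of 484 ± 41.0 and 221 ± 22.2. Itgal, the gene for CD11a, was at 405, 330, 343 and 481 CPM in iNKT cells and 230, 223, 262 and 240 CPM in the others (log2 fold change 0.55 ± 0.18, edgeR adjusted p = 0.036; 0.15, 0.096 and 0.26 without replicate 1, 2 or 4). The surface difference was thus in the same direction as its mRNA, both without overlap between the libraries.

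CD62L-low cells made up 76.2, 95, 80 and 84% of iNKT cells and 35.0, 67.8, 48.1 and 57.7% of other cells. The iNKT share was higher in 4 of 4 libraries, by 31.7 ± 6.82 percentage points. Of the 14 iNKT cells above a CD62L count of 3, 11 had counts of 4 to 7 and the others had 15, 23 and 58, so only a few cells stained clearly. An exact two-sided sign-flip permutation test over 4 libraries cannot give p below 0.13, and the CD11a and CD62L differences reached that value.

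CD4 staining split the cells. Of the 86, 23 had a CD4 antibody count of at most 14, none had 15 to 26, 10 had 27 to 60 and 53 had more than 60. With the threshold of each library (45, 21.1, 40 and 43.4 counts), 42.9, 75, 75 and 76% of iNKT cells were CD4-high, 58 of 86 in all. Other T cells were CD4-high in 73.7, 77.8, 68.5 and 72.7%. The difference of -5.95 ± 17 percentage points was smaller than its spread (exact sign-flip permutation p = 0.875, two-sided) and was 2.34 without replicate 1. Median CD4 counts were lower in iNKT cells of every library, at 35, 93.5, 119 and 138 against 234, 141, 191 and 225, a difference of -101 ± 67.2.

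A PE (CD8b) count was found in 11.8 ± 3.37% of iNKT cells and 28.0 ± 3.60% of other cells, lower in 4 of 4 libraries. Of the 10 iNKT cells concerned, 9 had a single count and 1 had 2. Cells that were neither CD4-high nor PE-positive made up 47.6, 20, 15 and 24% of iNKT cells and 6.10, 7.54, 14 and 11.5% of other cells. The double-negative share was higher in all 4 libraries (exact sign-flip permutation p = 0.13, two-sided, the smallest possible), with replicate 1 at the top of the iNKT range. Among CD62L-low cells it was higher in 3 of 4 (exact p = 0.25, sign-flip permutation).

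**Figure D1:**
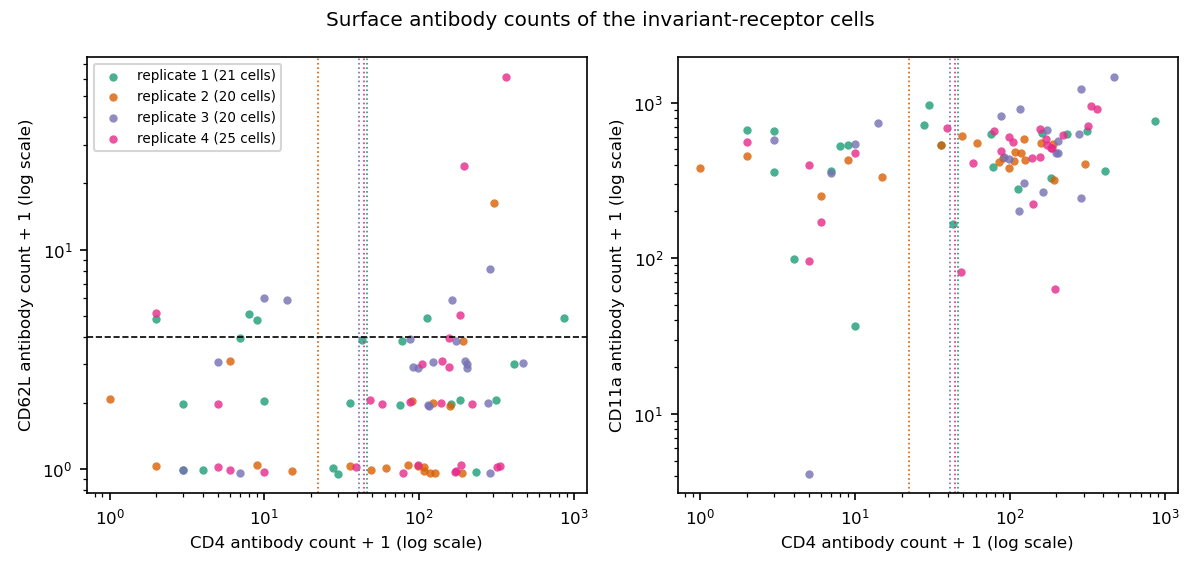
Each point is 1 of the 86 iNKT cells, by its CD4 antibody count against its CD62L (left) and CD11a (right) count, all plus 1 on log axes and coloured by replicate, with small random vertical shifts. Dotted lines are the CD4 thresholds of the 4 libraries and the dashed line the CD62L limit of 3 counts: 23 cells sit at a CD4 count of at most 14, and 14 cells lie above the dashed line.

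The beta chains were strongly skewed in their V segments. Of 75 iNKT clonotypes (distinct sets of CDR3 nucleotide sequences among cells with 1 TRB chain, the receptor beta chain), 53 used a TRBV13 entry, on average 69.9 ± 8.09% a library against 29.6 ± 0.950% of the 9993 other clonotypes. With TRBV29 and TRBV1, beta segments also typical of mouse iNKT cells, 71 of 75 were accounted for, 94.9 ± 3.61% against 40.0 ± 1.64%. Over 18 TRBV entries tested, 11 (61.1%) passed the threshold, 3 higher (16.7%) and 8 lower (44.4%). The deposited annotation names the commonest entry TRBV12-2+TRBV13-2, so TRBV13-2 stands under both that name and its own. With both counted as TRBV13-2, that segment stood at a log2 fold change of 1.56 (edgeR adjusted p = 1.1e-06).

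TRBV12-2+TRBV13-2 was used by 44.4, 50, 40 and 33.3% of iNKT clonotypes and by 12, 12.3, 13 and 12.4% of other clonotypes. Its log2 fold change was 1.71 ± 0.21 (edgeR adjusted p = 7.3e-07). TRBV29 made up 16.7, 16.7, 13.3 and 8.33% of iNKT clonotypes and 3.41, 2.85, 3.13 and 2.71% of the others (2.13 ± 0.30, adjusted p = 0.0017). TRBV13-3 made up 11.1, 16.7, 20 and 12.5% against 6.08, 5.20, 5.56 and 5.50% (1.37 ± 0.51, adjusted p = 0.029). For all 3 the libraries did not overlap. These 3 calls rest on scaling by the total number of clonotypes: with TMM scaling no entry was called higher, TRBV12-2+TRBV13-2 standing at 0.20 (edgeR adjusted p = 0.48), TRBV29 at 0.62 (0.27) and TRBV13-3 at -0.13 (0.76). TRBV1, with 8 of 75 clonotypes (10.7%) against 7.42%, and TRBV13-1, with 7 (9.33%) against 8.48%, did not pass (edgeR adjusted p = 0.43 and 0.89).

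Several common segments were not seen. TRBV16, TRBV15 and TRBV2, at 7.17, 5.42 and 5.15% of other clonotypes, were used by 0 of 75 iNKT clonotypes, which allows a share of up to 4.00%. TRBV3, TRBV20, TRBV10 and TRBV14 were also at 0, but their shares in the other cells, 3.29 to 3.90%, lie under that limit. All 7 passed as lower, as did TRBV5 with 1 clonotype of 75 against 9.28% (edgeR adjusted p = 0.032), that of the cell with the 51-base CDR3. With 1 library left out, the calls were fewer: without replicates 1, 2, 3 and 4 in turn, 1, 1, 7 and 3 entries passed, 0, 0, 5 and 1 of them lower. TRBV12-2+TRBV13-2 passed each time, TRBV29 passed without replicate 3 or 4 but not without replicate 1 or 2 (edgeR adjusted p = 0.055 and 0.14), and TRBV13-3 passed in none (0.058 to 0.19). For the TRBJ segments of the same chains, 0 of 12 (0%) passed with edgeR, also 0 at an unadjusted p under 0.05. TRBJ2-7, the most used, made up 26.7% of iNKT and 22.2% of other clonotypes.

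**Figure D2:**
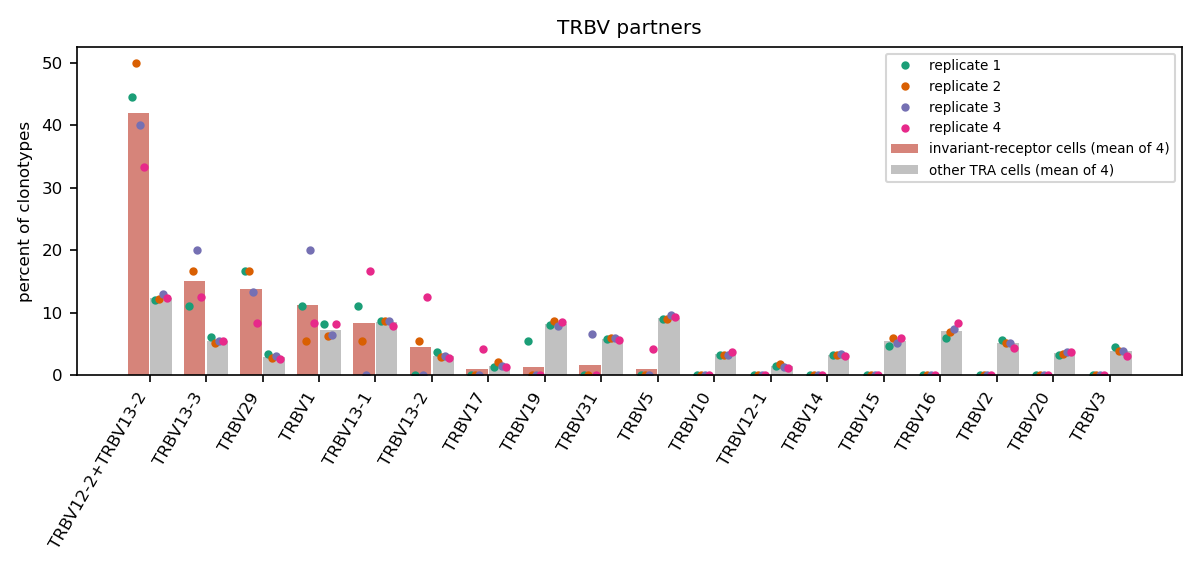
Bars are the mean percent of clonotypes over 4 libraries that used each TRBV entry, in iNKT cells (red) and other T cells with a productive TRA (grey), and points are the libraries. Entries at 1% or more of other clonotypes are shown: TRBV12-2+TRBV13-2, TRBV13-3 and TRBV29 lie above the grey bars in every library, and 8 of the entries on the right are at 0 in all 4.

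Clones among iNKT cells were few and small. Of 78 cells with 1 beta chain, 6 belonged to 3 clones of 2 cells, and the largest clone of other cells held 155. Their beta CDR3 sequences are shown because cells with the same pair of chains are taken to descend from 1 cell and can be compared for CD4.

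Clone 1 (replicate 1, TRBV12-2+TRBV13-2, TRBJ1-1): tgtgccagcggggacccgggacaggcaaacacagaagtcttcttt
Clone 2 (replicate 1, TRBV29, TRBJ2-3): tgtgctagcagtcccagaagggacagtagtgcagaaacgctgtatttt
Clone 3 (replicate 3, TRBV1, TRBJ1-3): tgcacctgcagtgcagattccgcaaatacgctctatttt

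In clone 1 both cells were CD4-high, with antibody counts of 232 and 411. In clone 2 the counts were 9 and 111, and in clone 3 they were 4 and 114, so each of these clones held 1 CD4-low and 1 CD4-high cell by these counts. CD11a staining was weak too in both CD4-low cells, whose counts of 34 and 3 were the lowest but 1 and the lowest of the 86. The cells of clone 3 were also shallow, with 790 and 1458 gene UMIs. No beta CDR3 nucleotide sequence was shared by iNKT cells of different libraries, and 3 of 78 cells shared theirs with a cell outside the set.

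In CD62L-low cells, 12.5, 0, 15.4 and 0% of iNKT cells and 46.1, 46.4, 49.2 and 50.7% of other cells were in clones of at least 2 cells. That share grows with the number of cells sampled. When the others were thinned to the number of iNKT cells in each library, their share was 5.50, 3.89, 10.7 and 6.52%, and the difference of 0.32 ± 6.54 percentage points was within the spread (exact sign-flip permutation p = 0.875, two-sided). A difference in clonal expansion was not detectable with 13 to 21 iNKT cells a library.

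Across all genes, the iNKT cells differed from other CD62L-low T cells in 856 of 10637 genes tested (8.05% called at an adjusted p under 0.05 with edgeR), 322 higher (3.03%) and 534 lower (5.02%). The median gene stood at a log2 fold change of -0.21 under the scaling used (TMM), against -0.07 with totals alone. The split between higher and lower moved with the scaling, since 37.6% of calls were higher under TMM and 52.7% with totals alone (397 higher, 357 lower). With DESeq2, which differs in its test as well as its scaling and put the median gene at -0.12, 65.4% were higher (283 higher, 150 lower). Directions of genes with changes near these shifts are therefore less certain than those of the genes below. Receptor segment genes were left out of the test, since the rule used the receptor.

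The 12 genes with the largest positive differences, by a rule that required a call, the same direction in 4 of 4 libraries and a minimum level, were Fgl2, Tmem176b, Lmo4, Cxcr6, Lyst, Rcbtb2, St3gal6, Id2, Cd226, Ccr2, Sptssa and Tmem64, with log2 fold changes from 4.33 down to 2.32. Fgl2, a secreted fibrinogen-like protein, was at 259, 295, 520 and 284 CPM in iNKT cells and at 12.8, 17.8, 13.3 and 16.5 CPM in the others (4.33 ± 0.24, edgeR adjusted p = 5.8e-66). It was found in 29 of 86 cells, so its level comes from a minority of them. Cxcr6, a chemokine receptor of tissue T cells, was at 1114, 1164, 1174 and 1541 CPM against 102, 115, 115 and 130 CPM (3.29 ± 0.16, adjusted p = 9.3e-92). Id2, an inhibitor of E proteins active in innate-like lymphocytes, was at 742, 1242, 1393 and 1048 CPM against 136, 152, 172 and 181 CPM (2.63 ± 0.16, adjusted p = 2.5e-58). Both were nearly universal, with UMIs in 80 and 78 of 86 cells. The libraries did not overlap for any of the 12, an order that 6.55% of all genes tested had in this direction and 14% in the other.

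Lower genes were led by 4 with no UMI in the 72 cells: Lag3, an inhibitory receptor, Tox2, a transcription factor of exhausted and follicular T cells, Eomes, a T-box factor, and Il21, a cytokine of helper T cells. Lag3 was at 234, 294, 273 and 285 CPM in the other cells and at least 34.8-fold lower in iNKT cells, taking 3 counts over the group as the floor. Tox2 was at least 12.2-fold, Eomes at least 12.2-fold and Il21 at least 8.40-fold lower. Eomes varied more among the others, at 55.4, 62.3, 142 and 120 CPM. Over all alternatives run, with edgeR or DESeq2, its highest adjusted p was 0.44, so its call did not hold throughout. The other 8 named by the rule, Cd8a, Cd8b1, Jchain, Nsg2, Penk, Gm8369, Igkc and Aff3, had 1 to 3 UMIs each in iNKT cells. Cd8a, with 1 UMI, was 130 times higher in the other cells, with a counting interval of 23.4 to 5142. The calls of Cd8a, Cd8b1 and Igkc did not hold throughout either (highest edgeR or DESeq2 adjusted p 0.47, 0.49 and 0.34).

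**Figure D3:**
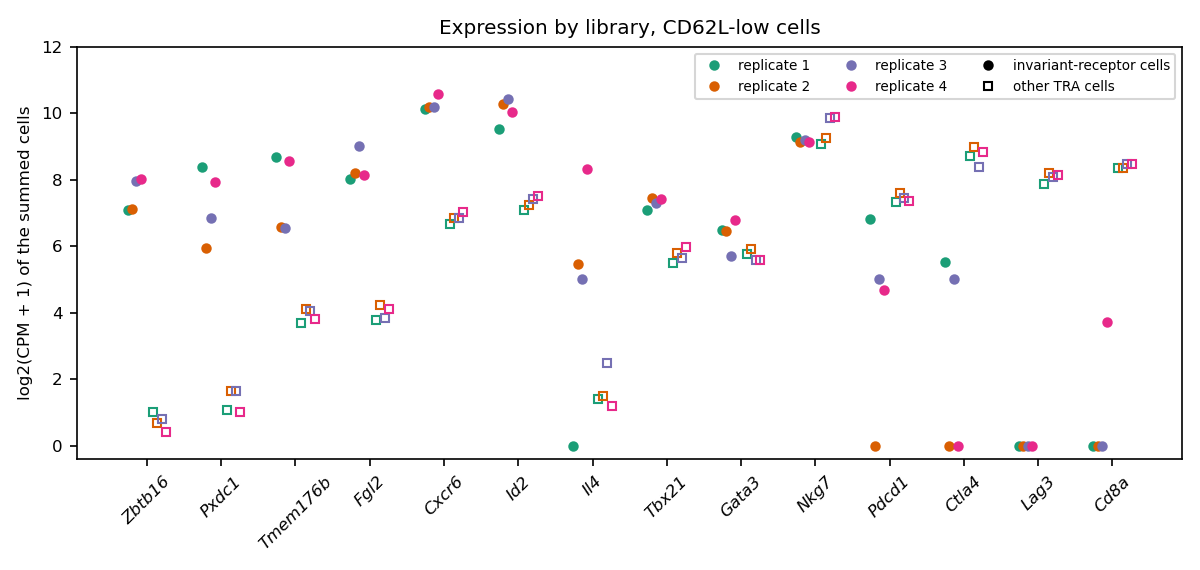
Expression of 14 genes as log2(CPM + 1) of the summed CD62L-low cells of each library, in iNKT cells (filled circles) and other T cells with a productive TRA (open squares), coloured by replicate. Zbtb16, Pxdc1, Tmem176b, Fgl2, Cxcr6, Id2 and Tbx21 are higher in iNKT cells in every library, Lag3 is at 0 in all 4, and the groups overlap for Il4, Gata3 and Nkg7.

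Each of the 3 subset lists held members that were higher in the summed iNKT cells. Over all 10637 genes tested, 3.03% were called higher and 5.02% lower, and the counts of each list stand beside these shares. In the NKT17 list of 21 genes, 14 of the 15 tested were higher and none lower, at a median log2 fold change of 2.72 against -0.21 over all genes. The other 6 had too few counts to be tested. Genes near 0 in the other cells passed the filter on low counts only through the iNKT libraries, so this count and median describe the genes that passed and not the list. With no filter, 15 of 21 were higher and none lower. Pxdc1, a gene of unclear function in the NKT17 programme, was at 337, 60.8, 114 and 247 CPM against 1.11, 2.12, 2.13 and 1.03 CPM (6.59 ± 0.54). It is among the genes that passed the filter only through the iNKT libraries, and its call is a description. Il7r, the receptor for the survival cytokine IL-7, was at 1001, 287, 520 and 1061 CPM against 137, 175, 164 and 154 CPM (1.92 ± 0.21, edgeR adjusted p = 1.6e-10). Against CD4-gate cells without a Foxp3 UMI, Il7r did not pass (1.36, adjusted p = 0.26). Ltb4r1 (5.13), Serpinb1a (4.25), Tmem176a (3.99), Aqp3 (2.72), Ccr6 (2.01), Il18r1 (1.86), Lgals3 (1.78), Rora (1.66) and S100a4 (0.94) were also higher on the log2 scale, while Emb (0.51, edgeR adjusted p = 0.14) did not pass. Without replicate 1, Aqp3, Ccr6 and S100a4 did not pass (edgeR adjusted p = 0.072, 0.18 and 0.14), and without replicate 4 neither did Aqp3 and Ccr6 (0.32 and 0.68), while Emb passed without replicate 2 or 3 (0.041 and 0.018). Ltb4r1 was dropped by the filter on low counts in several alternatives, and its call is a description too. The cytokines themselves, Il17a and Il17f, gave 0 UMIs.

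The NKT17 genes were uneven among the libraries. Of the 15 members with at least 10 UMIs in iNKT cells, 13 were higher in both replicates 1 and 4 than in both replicates 2 and 3, and none had the opposite order. Among all 5772 tested genes with as many UMIs, 18.5% had the first order. This split was chosen after the values were seen and has no test. It was the same, 13 of 15, without cells above 10000 UMIs. In the NKT1 list it held for 1 of 20 members and in the NKT2 list for 4 of 12. Ccr6, the chemokine receptor of type 17 cells, was at 78.7, 0, 0 and 136 CPM.

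In the NKT1 list, 12 of 22 members tested were higher and 3 lower (median log2 fold change 1.38). Over all genes tested, 3.03% were higher and 5.02% lower (median -0.21). Beside Tbx21, Cxcr6 and Id2, the higher members included the natural killer receptors Klra1, Klrk1 (1.39) and Klre1 (1.47). The others were the chemokine receptor Cxcr3 (0.72), Fasl (1.67), the protease gene Ctsw, the IL-12 receptor chain Il12rb2 (3.96), Ifng and Fcer1g. Klra1 (Ly49A) was at 78.7, 122, 52.0 and 24.7 CPM against 2.95, 1.5, 2.21 and 1.58 CPM (4.90 ± 0.64). It passed the filter on low counts only through the iNKT libraries, so its call is given as a description. With no filter, 11 of 25 members of the list were higher and 3 lower. Ctsw was at 709, 955, 987 and 826 CPM against 283, 329, 265 and 282 CPM (1.44 ± 0.16, edgeR adjusted p = 5.7e-18). Ifng was at 270, 304, 52.0 and 210 CPM against 67.6, 98.7, 99.7 and 114 CPM (0.98 ± 0.23, adjusted p = 0.00091), higher in 3 of 4 libraries. The list depended on the comparator: 16 of 22 members were higher and 1 lower against CD4-gate cells without a Foxp3 UMI, but 7 of 20 were higher and 4 lower against CD8-gate cells. Klrk1 and Klre1 stood at 0.09 and 0.08 against the CD8 gate (edgeR adjusted p = 0.90 and 0.92). The adjusted p of Ifng was 0.12 without replicate 1, 0.16 without replicate 2 and 0.23 with DESeq2. Cxcr3 did not pass without replicate 2 or 4 (edgeR adjusted p = 0.13 and 0.071), nor Klre1 without replicate 2 (0.052).

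The granzyme genes Gzmk (-3.55) and Gzmb (-1.71) were lower, as was Nkg7, a granule protein (586 ± 30.3 CPM in iNKT cells and 761 ± 217 CPM in the others, log2 fold change -0.47, edgeR adjusted p = 0.019). The order of Nkg7 depended on the comparator: against CD4-gate cells without a Foxp3 UMI it was higher (1.15, adjusted p = 6.2e-10). Gzmb then stood at 1.33 (edgeR adjusted p = 0.48), while Gzmk was lower against that gate too (-2.37, adjusted p = 0.00015). With no replicate block neither granzyme was called (edgeR adjusted p = 0.38 for Gzmk and 0.68 for Gzmb). Gzma was at 135, 156, 655 and 12.3 CPM, of which 1 cell of replicate 3 gave 51.1% of the UMIs, and did not pass (log2 fold change 2.48, edgeR adjusted p = 0.32), but passed without replicate 3 or 4 (1.86 and 3.0). Fcer1g (416, 17.4, 41.6 and 12.3 CPM) owed 54.5% of its UMIs to 1 barcode of replicate 1, described below, and was not called without replicate 1 (edgeR adjusted p = 0.90) or replicate 3 (0.061). Nkg7 was not called without replicate 3 or 4 (0.28 each), nor Gzmb without replicate 2, 3 or 4 (0.091, 0.14 and 0.21). In the cytotoxicity list as a whole, 5 of 15 members were higher and 3 lower, beside 3.03 and 5.02% of all genes tested. Under totals alone or DESeq2 only 1 member was lower. Against CD4-gate cells without a Foxp3 UMI, 9 of 14 were higher and 2 lower, and against CD8-gate cells 3 of 15 were higher and 7 lower.

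In the NKT2 list, 5 of 16 members were higher and 6 lower, beside 3.03 and 5.02% of all genes tested. The higher ones were Zbtb16, Il17rb, Il4, Plac8 and Icos. Il17rb, a receptor chain for IL-25, was at 22.5, 8.68, 10.4 and 86.3 CPM against 0.369, 0.273, 0.152 and 0.137 CPM (log2 fold change 6.65 ± 0.91). It rests on 11 UMIs in 7 cells and passed the filter on low counts only through the iNKT libraries, so its call is given as a description. Il4 was at 0, 43.4, 31.2 and 321 CPM against 1.66, 1.85, 4.65 and 1.30 CPM (4.70 ± 0.72), so it was higher in 3 of 4 libraries and mostly in replicate 4. Il4 and Zbtb16 also passed that filter only through the iNKT libraries, and their calls are descriptions. With no filter, 4 of 18 members of the list were higher and 5 lower. Gata3, the NKT2 regulator, was at 90.0, 86.8, 52.0 and 111 CPM against 53.3, 59.9, 47.2 and 47.5 CPM and did not pass (0.54 ± 0.32, edgeR adjusted p = 0.38). Icos (0.60) was not called without replicate 2, 3 or 4 (edgeR adjusted p = 0.094, 0.060 and 0.43). The lower ones were Il6st, Cd4, Ccr7, Cd27, Slamf6 and Egr2, of which Cd27 was not called without replicate 1 (0.13) and Egr2 without replicate 1, 2 or 3 (0.26, 0.28 and 0.18). Cd4 was at 56.2, 113, 145 and 37.0 CPM against 341, 347, 315 and 297 CPM (-2.02 ± 0.24, adjusted p = 4.5e-15).

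Transcripts of NKT1 and NKT2 genes were also found in the same cells. Among the 86 cells, 32 had a Tbx21 UMI and 28 a Gata3 UMI, and 12 had both. Whether 12 exceeds the number for unlinked detection was not tested. Without thinning, a Gata3 UMI was also found in 24.1% of other CD62L-low cells, against 31.4% of CD62L-low iNKT cells. Of the 20 cells with Ifng, 11 also had Tbx21 and 4 had Gata3. Of the 13 with Il4, 8 also had Tbx21 and 6 had Gata3, and 3 cells held both Ifng and Il4. The 69 CD62L-low iNKT cells deep enough to thin had a median of 4736 UMIs. At such depth a missing transcript does not show that a cell lacks it, and cells were not assigned to subsets.

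**Figure D4:**
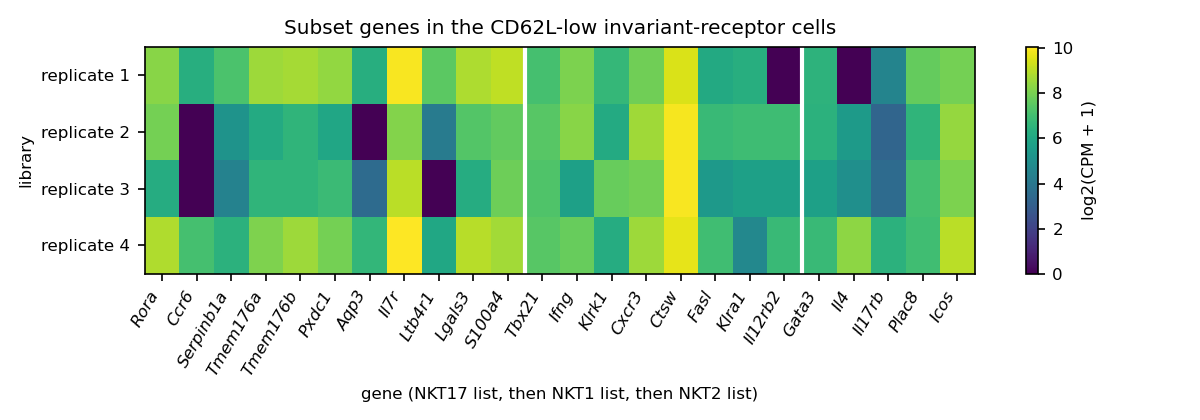
Colour gives log2(CPM + 1) of the summed CD62L-low iNKT cells of each library (rows) for genes of the NKT17, NKT1 and NKT2 lists, in that order and separated by white lines. Most NKT17 genes are brighter in replicates 1 and 4, Ccr6 is at 0 in replicates 2 and 3, and Il4 is at 0 in replicate 1 and highest in replicate 4.

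Genes of iNKT development and signalling split in both directions, 10 of 33 higher and 5 lower, beside 3.03 and 5.02% of all genes tested. The Tec kinase Txk (1.31), the exchange factor Rasgrp1 (1.09), the chromatin organiser Satb1 (1.55), the NK receptor Klrb1f (4.58) and Ccr2 (2.48) were higher. Of the SLAM pathway, which selects iNKT precursors in the thymus, Slamf6, Sh2d1a and Fyn were lower. Slamf6 was at 33.7, 17.4, 104 and 61.7 CPM against 221, 196, 217 and 212 CPM (-2.16 ± 0.29, edgeR adjusted p = 5.9e-12), Sh2d1a (SAP) stood at -1.31 and its kinase Fyn at -1.13. Slamf7, another receptor of the family, was at 56.2, 69.5, 114 and 74.0 CPM against 39.3, 31.2, 42.7 and 42.6 CPM, above the others in 4 of 4 libraries, and did not pass (0.88, adjusted p = 0.098). Tcf7 (-1.61) and Egr2 (-2.14) were lower too. Cd44 (0.48) and Il2rb (0.46) were above the others in every library but did not pass (edgeR adjusted p = 0.19 and 0.098).

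Of 13 naive and recirculation genes, 6 were lower, 2 higher and 5 not called, beside 5.02% of all genes lower and 3.03% higher. Among the lower ones were the egress receptor S1pr1 (-3.67) and the lymph node homing receptor Ccr7 (-2.47), and the higher ones were Il7r and Satb1. Both groups had been limited to cells with little CD62L protein. Of 12 residence genes, 3 were higher and 3 lower, beside 3.03 and 5.02% of all genes tested. The higher Rgs1 (0.52) was not called without replicate 1 or 3 (edgeR adjusted p = 0.26 and 0.31). Itga1, the CD49a integrin chain, was at 90.0, 130, 135 and 49.3 CPM against 4.52, 7.45, 7.54 and 7.60 CPM (3.77 ± 0.46, edgeR adjusted p = 5.6e-14). Itgae (CD103), the other integrin used to mark resident T cells, was lower (-2.88, adjusted p = 0.00015), but not called against CD4-gate cells without a Foxp3 UMI (-1.21, adjusted p = 0.56) or with no replicate block (edgeR adjusted p = 0.30).

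Inhibitory receptors and exhaustion genes were lower as a list, 8 of 12 members, with none higher, beside 5.02 and 3.03% of all genes. The median log2 fold change was -2.56, or -2.09 with the 3 members at 0 UMIs, Lag3, Havcr2 and Tox2, set at their bounds. Pdcd1 (PD-1) was at 112, 0, 31.2 and 24.7 CPM against 161, 194, 176 and 165 CPM (-2.29 ± 0.32, edgeR adjusted p = 6.0e-10). Ctla4 was at 45, 0, 31.2 and 0 CPM against 417, 507, 336 and 456 CPM (-4.67 ± 0.32, adjusted p = 6.2e-42). Tigit (-3.77), Tox (-2.83) and Nr4a2 (-1.89) were also lower, and the libraries did not overlap for any of these. Over all genes tested, 14% had that order. After thinning to 2000 UMIs, a Lag3 UMI was found in 0 of 69 iNKT cells and in 27.6 ± 0.802% of other cells, against 0 and 41.3% unthinned. The list stayed 0 higher with 6 to 9 lower under every alternative run, comparators of the CD4 gate and the CD8 gate included. Of the named members, Havcr2 was not called without replicate 3 or 4 (edgeR adjusted p = 0.07 and 0.060). Over all alternatives run, with edgeR or DESeq2, the highest adjusted p was 0.50 for Havcr2 and 0.30 for Nr4a2, so neither call held throughout.

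Genes of IL-10-producing and follicular NKT cells showed the same direction, 7 of 13 lower and none higher, beside 5.02 and 3.03% of all genes. Il10, Cxcr5 and Il21 gave 0 UMIs, and Tnfsf8 (-4.21), Cd200 (-2.68) and Nfil3 (-2.47) were lower beside Pdcd1. Without replicate 2, Il10 and Nfil3 were not called (edgeR adjusted p = 0.088 and 0.069). Against CD8-gate cells alone, 2 of 10 were lower and 1 was higher. In the list of cytokines, 4 of 14 members were higher, Ifng, Il4, Ltb (0.77) and Csf2. Lower were 3, Il10, Il21 and Tnfsf11, the last not called without replicate 1 (edgeR adjusted p = 0.059). Over all genes tested, 3.03% were higher and 5.02% lower. Csf2, which encodes GM-CSF, was at 45, 26.1, 10.4 and 37.0 CPM against 0.461, 0.547, 0.838 and 0.685 CPM (5.34 ± 0.83), from 11 UMIs in 6 cells. Like Il17rb and Il4, it passed the filter on low counts only through the iNKT libraries, and its call is a description.

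**Figure D5:**
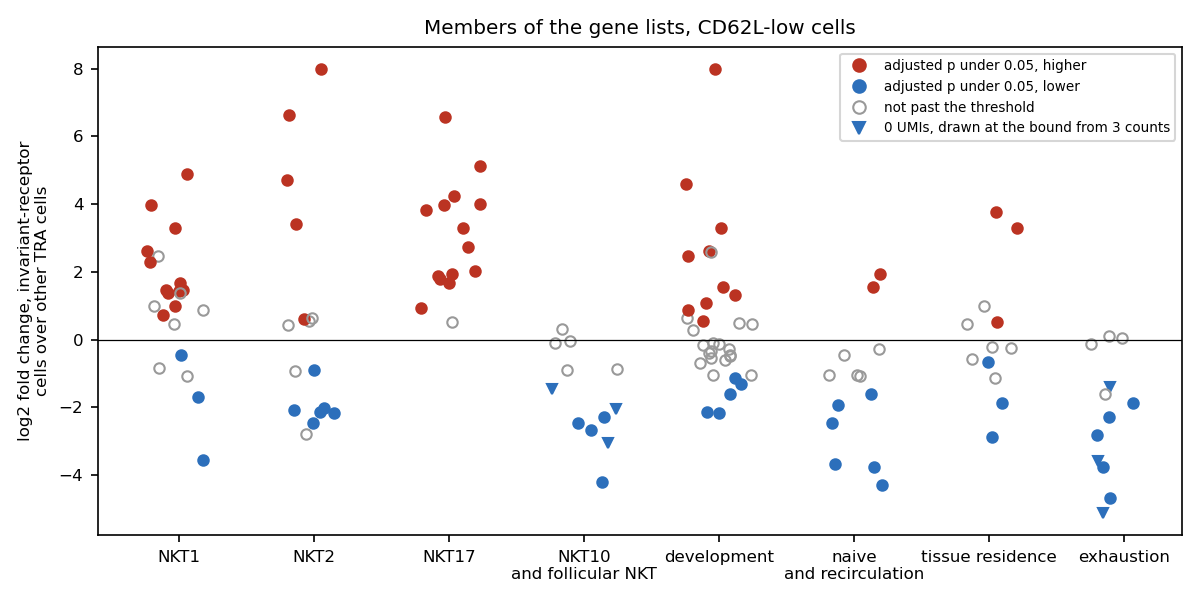
Each symbol is a tested member of a gene list, by its log2 fold change between iNKT cells and other T cells in CD62L-low cells. Filled red and blue symbols passed an adjusted p under 0.05, and open grey ones did not. Triangles are genes without a UMI in iNKT cells, drawn at the bound from 3 counts. Red are 14 of 15 tested NKT17 members and blue 8 of 12 exhaustion members, beside 3.03 and 5.02% of all genes. NKT17 genes near 0 in the other cells passed the filter on low counts only through the iNKT libraries.

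Proliferation genes were lower in 11 of 17 members and higher in none, beside 5.02 and 3.03% of all genes tested. Mki67 was at 11.2, 78.2, 811 and 0 CPM against 451, 357, 444 and 465 CPM and did not pass (log2 fold change -1.74, edgeR adjusted p = 0.64), but passed without replicate 3 (-3.76, adjusted p = 4.9e-24). A single cell of replicate 3 with 17318 UMIs gave 45.6% of the Mki67 UMIs of the 86 cells. Without cells that had more than 10000 UMIs or 3 or more UMIs of B cell genes, left out of both populations together, 0 of 16 members passed. That left 15, 18, 14 and 21 iNKT cells and 1204, 1612, 1662 and 2088 other cells, and which of the removed cells moved the count was not tested. With DESeq2, and with no replicate block, 3 of 17 were lower. Against CD4-gate cells without a Foxp3 UMI 3 of 17 were lower, and against CD8-gate cells 7 of 17. With the other cells thinned to the iNKT UMIs, 2 of 9 were lower. Leaving out a library gave from 5 lower (without replicate 1) to 15 lower (without replicate 3). Of 14 genes induced by tissue dissociation, Junb (0.56) and Hspa8 (0.29) were higher and none lower, beside 3.03 and 5.02% of all genes. At any CD62L count 6 of the 14 were higher. Their summed level was 14995, 20617, 7472 and 7855 CPM in iNKT cells and 8167, 9898, 7490 and 9243 CPM in other cells, so it was higher in replicates 1 and 2 and not in replicates 3 and 4. The part of this in the other results was not tested. Neither Junb nor Hspa8 was called without replicate 2 (edgeR adjusted p = 0.27 and 0.48), nor Hspa8 without replicate 1 (0.42) or 3 (0.097).

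Markers of other cell types were mostly at or near 0. Of the B cell markers, Cd79a, Cd79b and Ms4a1 gave 0 UMIs, but the summed level of the 7 was 6029 CPM in replicate 1 and 114 to 234 CPM in the other libraries, against 703 to 1441 CPM in other T cells. This was Cd74, and 81.5% of its UMIs came from 1 barcode of replicate 1 with 12496 UMIs, 2 TRA chains and a 16-residue CDR3. The same barcode gave 50 of 50 Cd209a UMIs and 81.9% of H2-Aa, a dendritic cell gene and an MHC class II gene. It was kept by the rule. Without it and all other cells, of either population, above 10000 UMIs or with 3 or more UMIs of B cell genes, 658 genes were called, 523 of them among the 856 in the same direction, and the NKT17, NKT1 and exhaustion lists gave 13 of 14 higher, 13 of 22 higher and 7 of 12 lower.

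The gamma-delta markers Tcrg-C2 (3.18) and Tcrg-C4 (1.96), constant regions of the gamma chain, were higher, at a summed marker level of 130 to 370 CPM against 40.2 to 49.8 CPM, while Trdc and Sox13 gave 0 UMIs. Of the NK markers, Ncr1 (4.55) and Klra4 (4.79) were higher, from 21 UMIs in 4 cells and 11 UMIs in 4 cells, and Eomes was at 0. The filter on low counts dropped Ncr1 and Klra4 in some alternatives, and their calls are given as descriptions. The part of these markers in the other results was not tested. Foxp3, the regulatory T cell factor, gave 9 UMIs in 4 cells and did not pass. Of the other regulatory T cell markers Ctla4 was lower, but Il2ra, the IL-2 receptor alpha chain, was higher, at 270, 104, 93.5 and 173 CPM against 45.5, 56.4, 44.4 and 54.5 CPM (1.48 ± 0.27, edgeR adjusted p = 2.0e-06). Cd40lg, a helper T cell ligand, was higher than in the other cells (1.24, edgeR adjusted p = 1.0e-05) but was not called against CD4-gate cells without a Foxp3 UMI (0.41, adjusted p = 0.33).

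Within the iNKT cells, CD4-high cells (9, 15, 15 and 19) were compared with CD4-low cells (12, 5, 5 and 6) of the same libraries. No gene of 893 tested passed (0%), with 22 at an unadjusted p under 0.05 by edgeR, and DESeq2 called 0 as well, with 9 at an unadjusted p under 0.05. The genes described next were chosen after their values were seen. Tmem176a, a membrane protein gene of the NKT17 list, was at 184, 60.7, 40.9 and 114 CPM in CD4-high cells and at 682, 69.9, 749 and 561 CPM in CD4-low cells (log2 fold change -2.23 ± 0.49, edgeR adjusted p = 0.44). Ifi27l2a, an interferon-induced gene, was at 586, 231, 491 and 366 CPM in CD4-high cells and at 35.0, 163, 53.5 and 0 CPM in CD4-low cells (2.59 ± 0.63, adjusted p = 0.66).

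In replicate 2 the CD4-low side was unusual, with 25049 of its 42917 UMIs from 1 cell. Without replicate 2, 5 of 931 genes passed, Ifi27l2a, Actb, Actg1 and Tuba1b higher and Tmem176a lower, with edgeR adjusted p = 3.6e-06 for Ifi27l2a and 4.6e-05 for Tmem176a. Zbtb16 (-0.03), Cxcr6 (-0.10), Fgl2 (-0.26) and Il7r (-0.36) gave no call in either fit. A Tbx21 UMI was found in 8 of 28 CD4-low and 24 of 58 CD4-high cells, and an Il4 UMI in 2 of 28 and 11 of 58. Replicate 1 supplied 12 of the 28 CD4-low cells, so these pooled counts mix CD4 with library and carry no test.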

How the data were processed

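The authors deposited, per replicate, a matrix of gene and antibody UMI counts (5′ gene expression and antibody libraries) and a table of receptor contigs with read and UMI counts. The submitters' processing notes name Cell Ranger 4.0.0, Seurat and the mm10 build, and their settings are not given in the sources used here. Kept were 27206 barcodes with at least 500 gene UMIs and at most 8% mitochondrial UMIs. No doublet caller was run, and 9 of the 86 iNKT barcodes carried 2 TRA and 6 carried 2 TRB chains. Among these, 5 barcodes carried both 2 TRA and 2 TRB chains. Counts were summed per library and population and tested with edgeR 4.0.16 (filterByExpr, TMM, robust quasi-likelihood, replicate as a block, Benjamini-Hochberg over all genes tested), with DESeq2 1.42.0 as an alternative. The script was tested on simulated data. CD4 thresholds came from a mixture of 2 components on log10 counts per library. TRBV use was tested on clonotype counts. Antibody and clone shares were tested by exact sign flips over 4 libraries. Both populations came from the same library, which is where the pairing comes from, and residuals of the same replicate correlated at -0.05, -0.05, 0.12 and 0.02.

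Members, lists and tests were chosen with earlier results of these data known. Named genes were members of the lists, plus the 12 with the largest log2 fold change in each direction that were called, moved one way in every library and had an average log2 CPM of at least 5. Other named genes were chosen after their values were seen.
Results for a few items are not reported here.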

Additional observations from a re-analysis of the deposited data

Results flagged for a closer look

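In a group of 4 libraries, a value was singled out when its gap to the nearest other took up most of the group's range (past the 95% critical value of Dixon's test), which chance alone does in about 1 of 20 groups. The CD4-high share of iNKT cells was 42.9% in replicate 1 and 75 to 76% in the others. Fgl2 was at 520 CPM in replicate 3, Cxcr6 at 1541 CPM in replicate 4, Il4 at 321 CPM in replicate 4 and Mki67 at 811 CPM in replicate 3, each apart from the 3 other libraries. For 8 of the lower genes, the library that held the only UMIs stood apart from 3 libraries at 0, which this measure then always singles out, so the rate of 1 in 20 does not apply to them. These were Cd8a (12.3 CPM) and Nsg2 (12.3 CPM) in replicate 4, Cd8b1, Penk and Gm8369 (11.2 CPM each) and Igkc (33.7 CPM) in replicate 1, and Jchain (8.68 CPM) and Aff3 (17.4 CPM) in replicate 2.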

How the results depend on the processing

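The limits of these data are the 86 cells and their depth: genes under about 10 CPM in iNKT cells rest on single UMIs, and a call lost with fewer cells does not show that a difference is absent. Against 856 genes called, 433 were called with DESeq2 (150 lower) and 221 of 1652 tested with the other cells thinned to the iNKT UMIs (122 higher, 99 lower), a thinning chosen after seeing the data. Leave-one-out fits called 593 to 762 genes (225 to 283 higher, 368 to 484 lower), and 537 to 616 of the 856 were called in each. With no replicate block, 743 genes were called, 301 higher and 442 lower. Requiring TRA contigs of at least 2 UMIs in both populations left 15, 12, 15 and 12 CD62L-low iNKT cells. It gave 668 calls (247 higher, 421 lower), 617 of them among the 856 in the same direction. In the CD4 split, 11 genes were called with no filter on low counts (7 higher, 4 lower), 3 without cells above 10000 UMIs or with 3 or more UMIs of B cell genes (1 higher, 2 lower; replicate 2 then has too few cells and drops out), 0 to 5 in leave-one-out fits (0 to 4 higher, 0 to 1 lower), and 0 with no replicate block. The 11 calls with no filter were among 11137 genes tested, and some rest on 1 cell. All 50 Cd209a and 55 Ifitm3 UMIs of the CD4-high side, and all 32 Cxcl2 UMIs of the CD4-low side, came from 1 cell each. Tmem176a and Ifi27l2a, found in more cells, were also among the 11. With CD62L at most 3, replicate 3 dropped out of the CD4 split.

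Of 11 TRBV entries called, 7 were called counting cells (5 lower), 5 at CD62L of at most 3 (3 lower) and 1 to 7 leaving out a library (1 to 2 higher, 0 to 5 lower). With the commonest CDR3 length, or with no filter, 5 were lower. TMM scaling over these few entries gave 0 higher, and it turned TRBV1 to -0.98, TRBV13-1 to -1.39, TRBV13-2 to -0.76 and TRBV13-3 to -0.13. TRBV13-1 stood at -0.17 at CD62L of at most 3. Leaving out a library, TRBV17 ranged from -7.35 to 0.36, TRBV13-1 from -0.59 to 0.46 and TRBV13-2 from -0.77 to 1.22. With no replicate block, 11 entries were called.

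Of the named genes, 6 turned sign. Nkg7 stood at 0.19 with 1 cell per clonotype and at 1.15 against the CD4 gate, Gzmb at 1.33 against the CD4 gate, Tnfsf11 at 0.32 and Cd4 at 4.76 against the CD8 gate, Mki67 at 0.18 without cells of either population above 10000 UMIs or with 3 or more UMIs of B cell genes, and Emb ranged from -0.017 to 0.78 leaving out a library. The clone share difference was -41.1 points unthinned, -1.25 for clones of at least 3 cells, -1.08 by TRB alone and -1.60 to 2.60 leaving out a library. That in CD4-high cells ranged from -10.1 to 2.34, that in double-negative cells from 8.65 to 22.2, in CD62L-low cells from 28.5 to 33.5 and in PE-positive cells from -17.3 to -15.4. The differences in median counts ranged from 347 to 392 for CD11a, from -119 to -68.7 for CD4 and from -4 to -1.33 for CD62L. Causes were not tested.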
